A study of Homo sapiens with 15 samples.

Results

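The genes described here are 10 enzymes that make serine, carry its carbon units into the folate cycle, or make proline and asparagine. They were taken by symbol from the gene count table, 10 of its 37787 genes, and all 10 were high enough to be tested. PHGDH, PSAT1 and PSPH make serine, SHMT1 and SHMT2 turn serine into glycine, and MTHFD2, MTHFD1L and ALDH1L2 handle the folate-bound carbon unit in the mitochondrion. PYCR1 catalyses the last step of proline synthesis and ASNS makes asparagine. RNA came from HGrC1, an immortalized line of non-luteinized human granulosa cells with normal FOXL2 alleles, used at passage 14. FOXL2 is a forkhead transcription factor of granulosa cells, and its C134W substitution is the recurrent mutation of adult-type granulosa cell tumours. The 5 conditions, with 3 libraries each, were Vectors (control vectors), FOXL2-WT (SMAD3 with wild-type FOXL2), FOXL2-C134W (SMAD3 with mutant FOXL2), FOXL2-WT + FOXO1 and FOXL2-C134W + FOXO1. SMAD3, a transducer of TGF-β and activin signals, was thus transfected in all conditions except Vectors, so SMAD3 and FOXL2 cannot be told apart in any comparison with Vectors. The FOXO1 construct was FOXO1-3A, a mutant that growth factor signals cannot move out of the nucleus. Plasmids were transfected transiently with a lipid reagent for 4 h, after which cells stayed in serum-free medium for 24 h, and each library averages transfected and untransfected cells of 1 line.

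Serine is made from a glycolytic intermediate by PHGDH, PSAT1 and PSPH in turn. SHMT enzymes pass a carbon unit from serine to tetrahydrofolate, and the mitochondrial enzymes oxidize that unit to formate, which leaves for the synthesis of purines, thymidylate and methionine. SHMT1 acts in the cytosol, and SHMT2 in the mitochondrion. Several of these genes, with ASNS, are textbook targets of ATF4, a transcription factor whose protein is made when amino acids are short or the endoplasmic reticulum is stressed. Asparagine, proline and glycine supply protein and nucleotide synthesis in dividing cells, which include the granulosa cells of a growing follicle.

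In GENCODE 44 (GRCh38), a release that may not be the one the authors used, the genes lie on 7 chromosomes. PHGDH is at chr1:119648411-119744218, MTHFD2 at chr2:74186172-74217565, MTHFD1L at chr6:150865679-151101887, PSAT1 at chr9:78297125-78330093 and SHMT2 at chr12:57229573-57234935, all on the plus strand. On the minus strand are PSPH at chr7:56011051-56051604, ASNS at chr7:97851677-97872542, ALDH1L2 at chr12:105019784-105107643, SHMT1 at chr17:18327860-18363563 and PYCR1 at chr17:81932384-81942412. SHMT1 and PYCR1 share chromosome 17, ASNS and PSPH chromosome 7, and SHMT2 and ALDH1L2 chromosome 12, but no pair is adjacent.

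Promoter windows from RefSeq (GRCh38.p14), each from 250 bases before to 50 bases after an annotated start, were given for 6 of the 10 genes: PHGDH, PSAT1, SHMT1, MTHFD2, MTHFD1L and ASNS. PSPH, SHMT2, ALDH1L2 and PYCR1 had no entry. The windows were searched on both strands for TGATGNAA, the core of the element bound by pairs of C/EBP and ATF proteins such as ATF4, for the forkhead element GTAAACA and for the E-box CACGTG; none of these 3 contains another. TGATGNAA was found for ASNS and MTHFD1L. The stretches below show it in capitals, with 11 bases on each side. The ASNS match, TGATGAAA, starts 68 bases before an annotated start. The MTHFD1L match, TGATGCAA, starts 129 or 90 bases before 2 annotated starts and 24 bases after another, and both matches lie inside the outer bounds of their genes in GENCODE 44. PSAT1 and SHMT1, which in FOXL2-WT against Vectors had the log2 fold changes nearest to that of ASNS and nearest to 0, are shown from 170 to 21 bases before their starts. They are all in lower case because none of the 3 motifs was found in their windows.
ASNS (chr7:97872458-97872487, minus strand): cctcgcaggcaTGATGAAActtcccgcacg
MTHFD1L (chr6:150866346-150866375, plus strand): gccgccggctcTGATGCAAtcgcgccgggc
PSAT1 (chr9:78296955-78297104, plus strand): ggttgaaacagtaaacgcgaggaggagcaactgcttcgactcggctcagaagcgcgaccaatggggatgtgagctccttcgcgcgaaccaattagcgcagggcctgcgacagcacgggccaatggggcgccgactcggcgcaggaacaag
SHMT1 (chr17:18363571-18363720, minus strand): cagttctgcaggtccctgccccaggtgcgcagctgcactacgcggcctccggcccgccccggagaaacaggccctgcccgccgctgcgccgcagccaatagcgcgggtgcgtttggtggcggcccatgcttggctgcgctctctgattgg

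TGATGNAA occurred in 3.62% of all 35116 promoter windows of this length, and in at least 1 window of 4.46% of the 27305 genes with windows. GTAAACA occurred in 3.42% of all windows and for 4.19% of all genes, but in no window of the 6 genes searched here. CACGTG occurred in 7.26% of windows and for 8.77% of all genes. Among the 6 genes it was found for MTHFD1L, starting 154, 115 or 1 base before an annotated start. A match describes the letters of a window and is not a bound site.

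Library totals ran from 14962245 to 25339094 estimated counts. The least covered gene, SHMT1, had 459 to 761 counts per library and the most covered, MTHFD2, 5865 to 9713. For single genes, counting noise and the spread between replicates were not separated. Nothing states that replicates came from separate experiments, and p-values measure the spread between these libraries. FOXL2 RNA, with endogenous and transfected copies counted together, averaged 8.73 ± 0.704 CPM (counts per 1000000 of the scaled library total; SD, n = 3) for Vectors. It averaged 561 ± 5.89 CPM for FOXL2-WT without FOXO1-3A and 384 ± 14.97 with it, and 147 ± 27.0 CPM for FOXL2-C134W without it and 152 ± 20.1 with it. SMAD3 RNA averaged 249 ± 11.99, 2768 ± 154, 969 ± 10.8, 843 ± 37.4 and 391.7 ± 16.9 CPM in the same order. FOXO1 RNA averaged between 11.99 and 13.2 CPM in the 3 conditions without its plasmid, 117 ± 14.5 beside FOXL2-WT and 43.2 ± 4.06 beside FOXL2-C134W. The transfected genes therefore sat where the labels put them, but at unequal RNA levels. By immunoblot of samples cultured in parallel, the authors report balanced protein of both FOXL2 forms and FOXO1. Of 13 granulosa cell markers, GATA4, WT1, FST, KITLG, INHBA and NR5A1 were present. HSD17B1 had 53 to 111 counts, INHBB 16 to 46, AMH 14 to 43 and AMHR2 at most 7. The receptor gene FSHR was at 0 counts in all libraries, and the aromatase gene CYP19A1 and INHA had at most 4. Of 6 theca and luteal markers, LHCGR, CYP17A1, HSD3B2 and INSL3 had at most 3 counts, STAR had 32 to 88 and CYP11A1 16 to 48. Summed over the 6, they reached 3.76 to 6.02 CPM in Vectors, 3.19 to 3.55 in FOXL2-WT, 3.84 to 4.29 in FOXL2-C134W, 2.64 to 4.31 in FOXL2-WT + FOXO1 and 2.88 to 3.83 in FOXL2-C134W + FOXO1. CYP11A1 was lower in FOXL2-WT + FOXO1 than in Vectors (log2 fold change -0.93, adjusted p = 0.042), and the part of these genes in the results was not tested. The summed granulosa markers ranged from 272 to 295 CPM over all libraries, of which GATA4 alone averaged 142 CPM. Of the 13 granulosa markers 9 were tested. In FOXL2-WT against Vectors 1 was called higher and 1 lower, beside 2.46% and 3.61% of all genes tested. In FOXL2-C134W against Vectors 1 was called lower and none higher, beside 7.24% and 7.48% of all genes. The part of these markers in the results was not tested.

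Levels of different genes were compared in TPM, which accounts for transcript length. In Vectors MTHFD2 was the most abundant of the 10 genes at 289 ± 7.34 TPM (SD, n = 3). PHGDH at 170 ± 9.11, SHMT2 at 170 ± 4.74 and ASNS at 160 ± 9.49 TPM followed and did not differ beyond their spread. PSAT1 stood at 142 ± 7.24 TPM. PYCR1 at 94.4 ± 18.7 and MTHFD1L at 86.8 ± 7.86 TPM could not be ordered. PSPH reached 48.7 ± 2.60, SHMT1 23.7 ± 2.60 and ALDH1L2, whose main transcript is 7428 bases long, 10.99 ± 0.401 TPM. The mitochondrial SHMT2 was thus far above its cytosolic counterpart SHMT1 in these cells. In FOXL2-WT the order below MTHFD2, at 401 ± 30.5 TPM, was ASNS at 262 ± 14.6, PHGDH at 236 ± 8.74, PSAT1 at 234 ± 17.2 and SHMT2 at 230 ± 1.21 TPM. PHGDH, PSAT1 and SHMT2 did not differ beyond their spread there.

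The first question was how the pathway stood in cells given SMAD3 with wild-type FOXL2. In FOXL2-WT, 9 of the 10 genes were higher than in Vectors and none was lower. By edgeR's quasi-likelihood test with Benjamini-Hochberg adjustment over 13868 genes, 2.46% of all genes tested were called higher in this comparison. The median difference was 0.46 on the log2 scale for the 10 genes and 0.00 for all genes. In 9 genes every FOXL2-WT library lay above every Vectors library, which held for 15.2% of all genes. The 10 genes were chosen with earlier results of these data known. The shares of all genes, here and below, are therefore a description and not a test of the group.

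Among the serine synthesis genes, PSAT1, the aminotransferase of the middle step, moved most. It stood at 216, 249 and 240 CPM in the Vectors libraries and at 385, 423 and 366 CPM in the FOXL2-WT libraries. These groups did not overlap, and the level was 1.66-fold higher (log2 fold change 0.73, standard error 0.059, adjusted p = 1.3e-06). PHGDH, the dehydrogenase that opens the pathway, stood at 176, 189 and 194 CPM in Vectors and 263, 279 and 261 CPM in FOXL2-WT. Its level was 1.44-fold higher (log2 fold change 0.52, standard error 0.051, adjusted p = 9.1e-06). PSPH, the phosphatase that releases serine, had 37.9, 41.2 and 42.4 CPM in Vectors and 52.4, 59.9 and 50.1 CPM in FOXL2-WT. It was 1.33-fold higher (log2 fold change 0.41, standard error 0.093, adjusted p = 0.012), a call that was lost without Vectors replicate A (log2 fold change 0.37, adjusted p = 0.083) or without FOXL2-WT replicate B (0.34, adjusted p = 0.093). Its transcribed pseudogene PSPHP1 held 11 to 38 counts per library, 2.55% of the counts of PSPH, and named pseudogenes of ASNS, MTHFD2, PSAT1 and SHMT1 held at most 3.

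The serine hydroxymethyltransferases parted. SHMT2, the mitochondrial enzyme, had 238, 255 and 259 CPM in Vectors and 326, 341 and 330 CPM in FOXL2-WT, a 1.32-fold higher level (log2 fold change 0.41, adjusted p = 4.9e-05). SHMT1, the cytosolic enzyme, had 30.2, 32.3 and 28.6 CPM in Vectors and 31.2, 30.8 and 31.2 CPM in FOXL2-WT. The SHMT1 libraries of the conditions overlapped, and its log2 fold change was 0.03 with a 95% interval from -0.11 to 0.17 (adjusted p = 0.82). That interval ends below the lower bound of SHMT2, 0.31. The difference between the 2 genes was not itself tested.

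The 3 mitochondrial folate genes of the group were higher. MTHFD2, the dehydrogenase and cyclohydrolase, had 288, 298 and 318 CPM in Vectors and 420, 448 and 409 CPM in FOXL2-WT (log2 fold change 0.50, adjusted p = 5.5e-06). MTHFD1L, which releases formate, had 116, 119 and 125 CPM in Vectors and 148, 166 and 150 CPM in FOXL2-WT (0.37, adjusted p = 8.7e-05). ALDH1L2, which oxidizes formyl-tetrahydrofolate to carbon dioxide, had 65.5, 64.9 and 69.6 CPM in Vectors and 93.1, 97.3 and 90.9 CPM in FOXL2-WT (0.49, adjusted p = 2.7e-05). All 3 genes were separated from Vectors in every library. The cytosolic counterpart MTHFD1, named after its values were seen, averaged 188 CPM in Vectors and 190 CPM in FOXL2-WT (log2 fold change 0.02, adjusted p = 0.82). MTHFD2L, a mitochondrial relative of MTHFD2 also named after its values were seen, averaged 6.26 and 6.22 CPM (log2 fold change -0.01, 95% interval -0.27 to 0.26, adjusted p = 0.98). In DESeq2 with transcript length offsets, MTHFD1L no longer passed the test (log2 fold change 0.22, adjusted p = 0.22), and neither did PYCR1 (0.39, adjusted p = 0.086).

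ASNS, the asparagine synthetase, had 134.3, 154 and 151 CPM in Vectors and 242, 265 and 227 CPM in FOXL2-WT. It was 1.67-fold higher (log2 fold change 0.74, standard error 0.061, adjusted p = 1.6e-06), and its 95% interval, 0.61 to 0.87, overlapped that of PSAT1, 0.61 to 0.86. PYCR1, the proline enzyme, had 83.3, 95.6 and 95.04 CPM in Vectors and 117, 133 and 119 CPM in FOXL2-WT (log2 fold change 0.43, adjusted p = 0.0031). FOXL2-WT replicate B, with 14992137 counts the shallowest library of its group, was the highest of the 3 FOXL2-WT libraries in 9 of the 10 genes. Without it and the other library under 16000000 counts, 9 genes were still called higher.

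**Figure D1:**
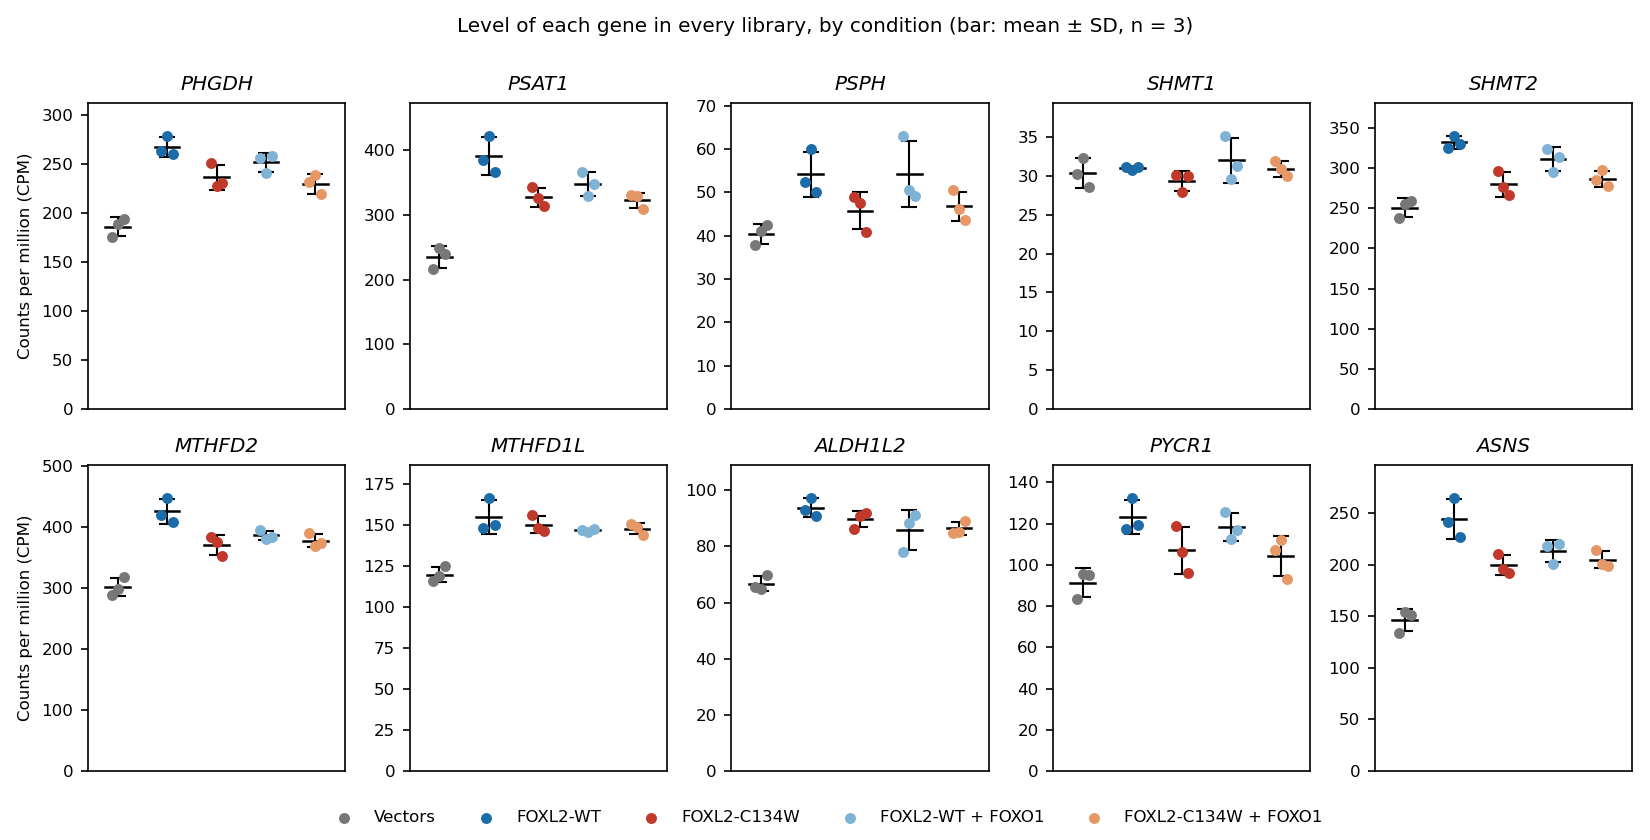
Level of each of the 10 genes in every library, in CPM on a linear axis that starts at 0, with 1 panel per gene, points for libraries of the 5 conditions, and black bars for the mean ± SD (n = 3). The FOXL2-WT libraries lie above the Vectors libraries in 9 of 10 panels, whereas in the SHMT1 panel all 15 libraries lie between 27.9 and 35.2 CPM.

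The same comparison was made with the mutant. In FOXL2-C134W, 7 of the 10 genes were higher than Vectors, none was lower, and 7.48% of all genes tested were called higher. The median was 0.31 on the log2 scale for these genes and 0.00 for all genes. PSAT1 had 343, 326 and 314 CPM, 1.39-fold the Vectors level (log2 fold change 0.48, adjusted p = 3.1e-05). ASNS had 211, 196 and 192 CPM (0.45, adjusted p = 7.8e-05), and ALDH1L2 86.3, 90.9 and 91.9 CPM (0.43, adjusted p = 3.5e-05). The libraries of these 3 genes lay above those of Vectors, as they did for 8 of the 10 genes, a separation found in 15.7% of all genes.

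PHGDH, at 252, 228 and 231 CPM, was higher by 0.35 on the log2 scale (adjusted p = 0.00015). MTHFD2, at 384, 376 and 353 CPM, was higher by 0.30 (adjusted p = 0.0002), and MTHFD1L, at 156, 148 and 146 CPM, by 0.33 (adjusted p = 0.00011). SHMT2 had 296, 276 and 267 CPM and a small difference of 0.16 (adjusted p = 0.031). That call was lost when Vectors replicate A or B or FOXL2-C134W replicate A or B was left out, with a largest adjusted p of 0.12, and in a fit of only the groups compared (0.15, adjusted p = 0.061). With transcript length offsets in DESeq2 the SHMT2 difference was 0.30 (adjusted p = 7.8e-06). PSPH (log2 fold change 0.18, adjusted p = 0.22), PYCR1 (0.23, adjusted p = 0.059) and SHMT1 (-0.05, adjusted p = 0.69) did not pass. PYCR1 passed in 7 of 11 other settings and without FOXL2-C134W replicate C (0.30, adjusted p = 0.02). Of the 10 genes, 9 had their highest FOXL2-C134W value in replicate A.

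The direct comparison asked how far the mutant differed from wild type. Under the mutant, 5 genes were lower than under wild type and none was higher, where 4.12% of all genes tested were called lower. The other 5 did not pass, although all 10 log2 fold changes were below 0, with a median of -0.20 against -0.01 over all genes. In 7 genes every FOXL2-C134W library lay below every FOXL2-WT library, a separation found in 15.6% of all genes. ASNS stood at 0.818 times its FOXL2-WT level, a log2 fold change of -0.29 (standard error 0.061, adjusted p = 0.0045). PSAT1 differed by -0.25 (standard error 0.058, adjusted p = 0.0083), SHMT2 by -0.25 (0.048, adjusted p = 0.0025), MTHFD2 by -0.20 (0.045, adjusted p = 0.0078) and PHGDH by -0.18 (0.050, adjusted p = 0.028).

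ASNS passed in each of 6 fits with 1 library left out and in each of 11 other settings. SHMT2 passed in all but DESeq2 with transcript length offsets (log2 fold change -0.16, adjusted p = 0.072). PSAT1 and MTHFD2 lost their calls without FOXL2-WT replicate B (adjusted p = 0.075 and 0.070) or FOXL2-C134W replicate C (adjusted p = 0.050 for PSAT1 and 0.054 for MTHFD2). PHGDH kept its call in 1 of 6 such fits, that without FOXL2-C134W replicate A, with log2 fold changes from -0.22 to -0.14 and adjusted p up to 0.17. Without FOXL2-WT replicate B, or without FOXL2-C134W replicate C, 2 genes were called, ASNS and SHMT2. PSPH (-0.23, adjusted p = 0.11) and PYCR1 (-0.20, adjusted p = 0.12) had differences as large as those of called genes with wider errors. ALDH1L2 (-0.06, 95% interval -0.17 to 0.05), MTHFD1L (-0.04, -0.14 to 0.05) and SHMT1 (-0.08, -0.22 to 0.06) did not pass, and their intervals leave room for differences of up to those bounds. RNA of the transfected genes moved the same way, since with the mutant FOXL2 stood at 0.263 times and SMAD3 at 0.305 times their FOXL2-WT levels. The mutation and these levels cannot be told apart here. In whole-culture RNA, fewer responding cells and less RNA per cell cannot be told apart either.

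**Figure D2:**
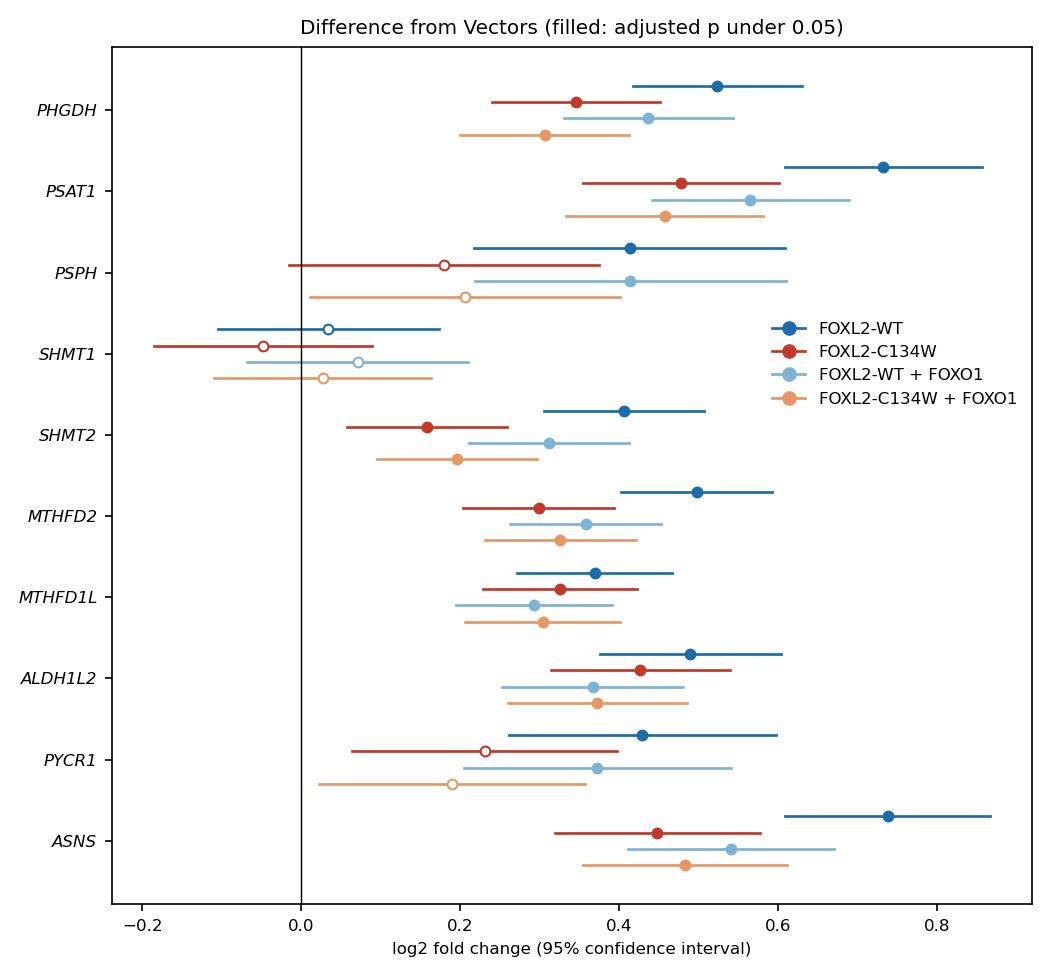
Log2 fold change against Vectors (x axis) for each gene (rows) in the 4 transfected conditions, with 95% confidence intervals as lines, filled points for an adjusted p under 0.05 and open points otherwise. The 4 comparisons share the 3 Vectors libraries. FOXL2-WT points lie farthest right for PSAT1 (0.73) and ASNS (0.74), and all 4 SHMT1 points are open.

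The third question was how the genes stood where FOXO1-3A was added. With its plasmid, SMAD3 RNA stood at 0.350 times its FOXL2-WT level and at 0.465 times its FOXL2-C134W level. FOXL2 RNA stood at 0.685 times its FOXL2-WT level and was not called different beside FOXL2-C134W. FOXO1-3A and these levels cannot be told apart in the comparisons below. Beside FOXL2-WT, none of the 10 genes passed edgeR's test, where 0.0505% of all genes tested, 7 genes, were called. At an unadjusted p under 0.05 there were 4 of these 10 genes and 1266 of all genes. The 4 were ASNS, PSAT1, MTHFD2 and ALDH1L2, all lower with FOXO1-3A in their point estimates. ASNS had 218, 201 and 221 CPM with FOXO1-3A against 242, 265 and 227 CPM without, a log2 fold change of -0.20 (95% interval -0.32 to -0.07, adjusted p = 0.33). MTHFD2 had 395, 380 and 384 CPM against 420, 448 and 409 CPM (-0.14, -0.23 to -0.04, adjusted p = 0.36). The PSAT1 libraries, at 367, 330 and 348 CPM, overlapped with those of FOXL2-WT (-0.17, -0.29 to -0.04, adjusted p = 0.40), and ALDH1L2 differed by -0.12 (-0.24 to -0.01, adjusted p = 0.51). DESeq2 called 0 of the 10 genes, and testing all genes with at least 1 count in any library called 2, ASNS (adjusted p = 0.0070) and PSAT1 (adjusted p = 0.028). The 0.0505% above belongs to the main filter, and the share of all genes called with the wider filter is not given here.

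Beside FOXL2-C134W, FOXO1-3A was followed by no called difference in the 10 genes by edgeR or by DESeq2, where edgeR called 0.714% of all genes tested. None of the 10 genes had an unadjusted p under 0.05, as 1557 of all genes did, and the median log2 fold change was 0.00. ASNS had 214, 201 and 199 CPM against 211, 196 and 192 CPM, a log2 fold change of 0.03 with an interval of -0.09 to 0.16. PSAT1 had 330, 329 and 310 CPM against 343, 326 and 314 CPM (-0.02, -0.14 to 0.10).

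The interaction, the FOXO1-3A effect beside FOXL2-C134W minus that beside FOXL2-WT, was called by edgeR in 0 of the 10 genes and in 1.38% of all genes tested. At an unadjusted p under 0.05 stood 2 of the 10 genes and 1736 of all genes. ASNS had an interaction of 0.23 (95% interval 0.05 to 0.41, adjusted p = 0.24) and MTHFD2 one of 0.17 (0.03 to 0.30, adjusted p = 0.26). Neither is shown to respond differently beside the 2 FOXL2 forms. DESeq2 called 0 as well.

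With FOXO1-3A in both conditions, edgeR called 0 of the 10 genes between FOXL2-C134W + FOXO1 and FOXL2-WT + FOXO1, as it called 0.144% of all genes tested, and DESeq2 called 0. At an unadjusted p under 0.05 stood 4 of the 10 genes, PHGDH, PSPH, SHMT2 and PYCR1, and 1878 of all genes. PHGDH had 232, 240 and 219 CPM against 257, 241 and 259 CPM (log2 fold change -0.13, 95% interval -0.24 to -0.02, adjusted p = 0.28). SHMT2 differed by -0.12 (adjusted p = 0.30), PSPH by -0.21 (adjusted p = 0.34) and PYCR1 by -0.18 (adjusted p = 0.33). FOXL2 RNA stood at 0.397 times and SMAD3 RNA at 0.404 times the FOXL2-WT + FOXO1 level, and their part was not tested. FOXL2-WT + FOXO1 itself held less FOXL2 and SMAD3 RNA than FOXL2-WT, as given above.

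**Figure D3:**
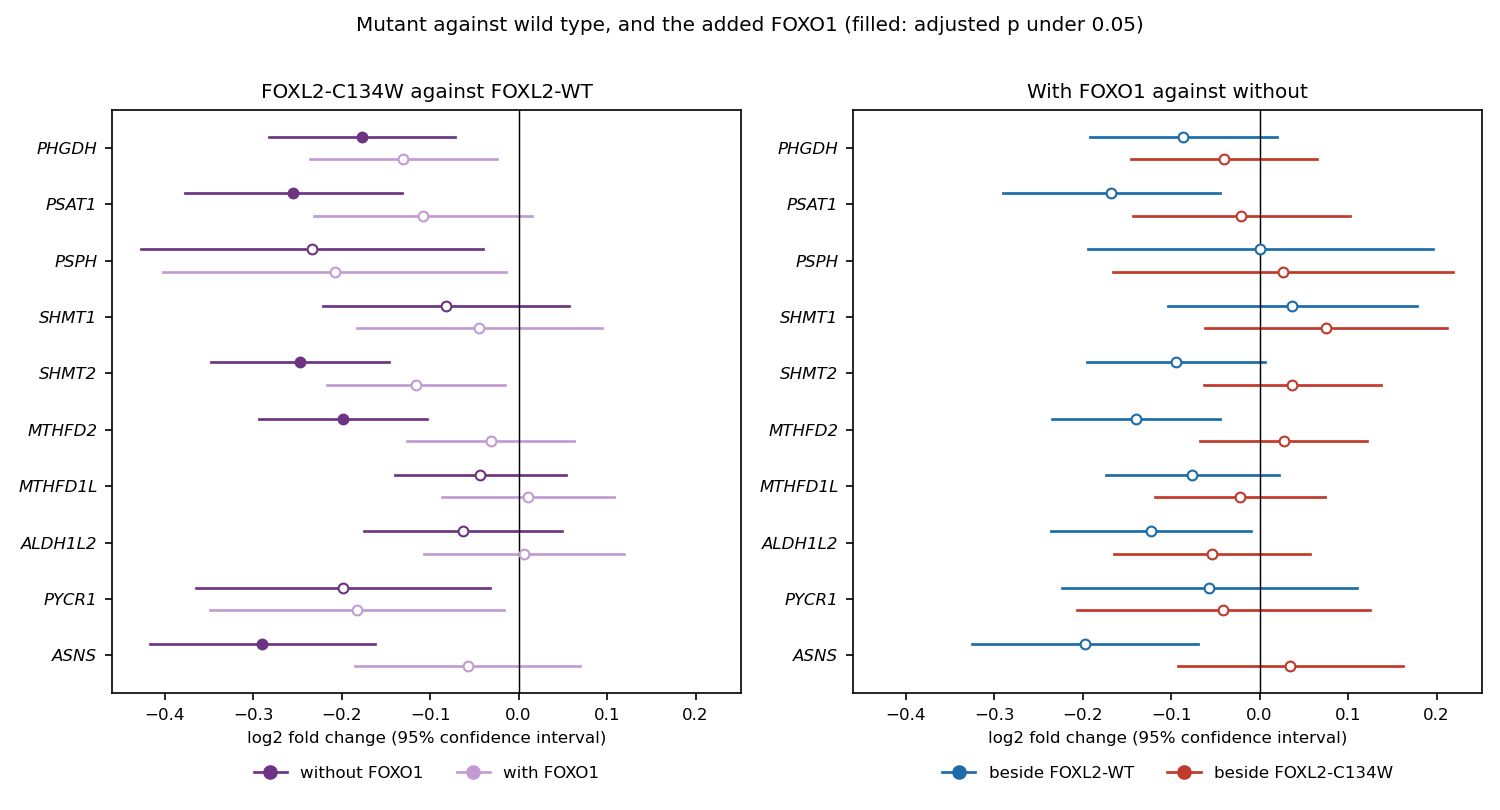
Log2 fold changes (x axis, lines for 95% confidence intervals) of the 10 genes (rows). The left panel compares FOXL2-C134W with FOXL2-WT, without and with FOXO1-3A, and the right panel compares FOXO1-3A with none beside each FOXL2 form. Filled points had an adjusted p under 0.05: PHGDH, PSAT1, SHMT2, MTHFD2 and ASNS in the comparison without FOXO1-3A, and none elsewhere.

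Both conditions with FOXO1-3A were also compared with Vectors. In FOXL2-WT + FOXO1, 9 genes were higher, all but SHMT1, where 1.41% of all genes tested were called higher. PSAT1 differed by 0.57 (adjusted p = 2.4e-05), ASNS by 0.54 (6.5e-05), PHGDH by 0.44 (7.1e-05), PSPH by 0.41 (0.016), PYCR1 by 0.37 (0.012), ALDH1L2 by 0.37 (0.0006), MTHFD2 by 0.36 (0.00016), SHMT2 by 0.31 (0.0009) and MTHFD1L by 0.29 (0.0011). SHMT1 differed by 0.07 (adjusted p = 0.65). The calls of PSPH and PYCR1 were lost without Vectors replicate A (adjusted p = 0.096 and 0.089) or without FOXL2-WT + FOXO1 replicate A (0.077 and 0.053), a library of 14962245 counts. In that library PSPH stood at 63.1 CPM, against 50.4 and 49.2 CPM in the other two.

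In FOXL2-C134W + FOXO1, 7 genes were higher than Vectors, where 4.17% of all genes tested were called higher. ASNS differed by 0.48 (adjusted p = 5.6e-05), PSAT1 by 0.46 (6.6e-05), ALDH1L2 by 0.37 (0.0002), MTHFD2 by 0.33 (0.00013), PHGDH by 0.31 (0.00064), MTHFD1L by 0.30 (0.00032) and SHMT2 by 0.20 (0.014). In DESeq2 with transcript length offsets the MTHFD1L call was lost here (0.18, adjusted p = 0.33) and in FOXL2-WT + FOXO1 (0.21, adjusted p = 0.27), as was that of PYCR1 in FOXL2-WT + FOXO1 (0.38, adjusted p = 0.12). The SHMT2 call was lost without Vectors replicate A (adjusted p = 0.085) or FOXL2-C134W + FOXO1 replicate B (0.058). PSPH (0.21, adjusted p = 0.18), PYCR1 (0.19, adjusted p = 0.15) and SHMT1 (0.03, adjusted p = 0.86) did not pass.

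The means of 3 genes, given here for all conditions, ran from Vectors at the bottom to FOXL2-WT at the top. PSAT1 averaged 235 ± 17.0 CPM for Vectors. The FOXL2-C134W conditions followed at 323 ± 11.47 with FOXO1-3A and 328 ± 14.9 without, and the FOXL2-WT conditions at 348 ± 18.3 with FOXO1-3A and 391 ± 29.1 without (SD, n = 3). FOXL2-C134W with and without FOXO1-3A did not differ beyond their spread. ASNS ran from 147 ± 10.7 CPM (Vectors) through 199.9 ± 9.80 (FOXL2-C134W), 205 ± 8.30 (FOXL2-C134W + FOXO1) and 213 ± 10.6 (FOXL2-WT + FOXO1) to 245 ± 19.3 (FOXL2-WT). The middle 3 of these did not differ beyond their spread. MTHFD2 ran from 301 ± 14.8 CPM in Vectors to 426 ± 20.2 in FOXL2-WT, with FOXL2-C134W at 371 ± 16.2, FOXL2-C134W + FOXO1 at 378 ± 11.3 and FOXL2-WT + FOXO1 at 386 ± 7.36. For SHMT1 all condition means lay between 29.3 and 32.0 CPM.

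The 10 genes were compared, one at a time, with the mean of the other 9 over the 15 libraries, as a description of libraries that share conditions and depths. Pearson's r was 0.988 for PSAT1, 0.980 for PHGDH, 0.979 for ASNS, 0.964 for MTHFD2 and 0.954 for SHMT2. It was 0.919 for PYCR1, 0.896 for MTHFD1L, 0.868 for PSPH and 0.757 for ALDH1L2, and lowest, 0.256, for SHMT1. The genes outside the group whose pattern was most like its mean, over the same 15 libraries, were PCK2 (r = 0.984), a mitochondrial enzyme of phosphoenolpyruvate synthesis, the seryl-tRNA synthetase gene SARS1 (0.983), the methionyl-tRNA synthetase gene MARS1 (0.973), the alanine aminotransferase gene GPT2 (0.971) and the glutamine carrier gene SLC1A5 (0.965). In FOXL2-WT against Vectors PCK2 differed by 0.66 on the log2 scale, SLC1A5 by 0.55, GPT2 by 0.51, SARS1 by 0.39 and MARS1 by 0.39. These genes were picked by likeness over the same libraries, so the direction of these differences follows from the choice.

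Genes around the pathway did not all move with it. Of 25 other genes of serine, glycine and folate metabolism, 21 were tested, and in FOXL2-WT against Vectors 2 were higher and 2 lower, with a median log2 fold change of -0.01. In FOXL2-C134W 3 were higher and 3 lower. Over all genes tested, 3.61% were called lower in FOXL2-WT and 7.24% in FOXL2-C134W, beside the shares called higher given above, and between the FOXL2 forms 7.13% were called higher with the mutant. GGH, which removes the glutamate tail of folates, was lower in FOXL2-C134W than in Vectors (-0.31, adjusted p = 0.0011), and the folate carrier gene SLC19A1 higher (0.28, adjusted p = 0.015). MTR, the methionine synthase, was the one gene of this list with a higher level under the mutant than under wild type (0.36, adjusted p = 0.0023), against the direction of the 10 genes. ATIC, a purine synthesis enzyme that takes a folate carbon unit, was higher in FOXL2-C134W than in Vectors (0.15, adjusted p = 0.016). It was also higher in FOXL2-WT than in Vectors (0.14, adjusted p = 0.038) and was not called between the FOXL2 forms (0.003, adjusted p = 0.97). The SLC19A1 call was lost without Vectors replicate A (0.23, adjusted p = 0.076) or FOXL2-C134W replicate A (0.19, adjusted p = 0.070). The ATIC call in FOXL2-C134W was lost without Vectors replicate B (0.13, adjusted p = 0.076). In FOXL2-WT the ATIC call held in 1 of 6 fits with 1 library left out (adjusted p up to 0.20) and in 6 of 11 other settings.

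Of the methionine cycle and transsulfuration genes, 5 of 7 were tested and 2 were higher in FOXL2-WT. CBS, which joins serine to homocysteine, was higher in FOXL2-WT (0.43, adjusted p = 3.1e-05) and in FOXL2-C134W (0.36, adjusted p = 6.1e-05). MAT2B, a regulator of S-adenosylmethionine synthesis, was lower in FOXL2-C134W than in Vectors (-0.15, adjusted p = 0.043), a call lost without any 1 of the libraries compared except Vectors replicate A (adjusted p up to 0.17). Of 12 other proline, aspartate and glutamine genes, 10 were tested and 3 were higher in FOXL2-WT, with 1 higher and 1 lower in FOXL2-C134W. GPT2 was higher in both (0.51 and 0.30), and GLUL, the glutamine synthetase, was lower with FOXL2-C134W than with FOXL2-WT (-0.20, adjusted p = 0.0024). GOT1, an aspartate aminotransferase, was also lower there (-0.19, adjusted p = 0.021), a call lost without FOXL2-WT replicate B (adjusted p = 0.15), FOXL2-C134W replicate B (0.10) or FOXL2-C134W replicate C (0.12).

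Of 15 regulators and marker targets of the ATF4 pathway, all tested, 8 were higher and none lower in FOXL2-WT against Vectors, with a median of 0.22. In FOXL2-C134W 6 were higher and 1 lower, and against FOXL2-WT 8 were lower and 2 higher. ATF4 RNA averaged 394 CPM in Vectors, 490 in FOXL2-WT (0.31, adjusted p = 0.00011) and 435 in FOXL2-C134W (0.14, adjusted p = 0.022), the last call lost without Vectors replicate A (adjusted p = 0.095) or FOXL2-C134W replicate A (0.069). ATF4 protein was not measured in these libraries. TRIB3, a pseudokinase that restrains ATF4, was higher in FOXL2-WT (0.78, adjusted p = 2.4e-05) and in FOXL2-C134W (0.38, adjusted p = 0.0056). CHAC1, which degrades glutathione, was higher by 0.72 in FOXL2-WT (adjusted p = 0.00066), and SESN2, a brake on mTORC1, by 0.57 (adjusted p = 0.00066). DDIT4, another such brake, was lower with FOXL2-C134W than with FOXL2-WT (-0.29, adjusted p = 0.0022). TRIB3 (-0.41), ATF4 and SESN2 were also among the 8 genes lower there. TRIB3 passed in each of 6 fits with 1 library left out, ATF4 in 4 (adjusted p up to 0.081) and SESN2 in 2 (up to 0.20). Over all alternative fits ATF4 ranged from -0.20 to -0.12 and SESN2 from -0.34 to -0.22. ATF3, a stress-induced factor of the same family, parted from the 10 genes: it was higher in FOXL2-WT (0.52, adjusted p = 0.00027) but lower in FOXL2-C134W than in Vectors (-0.42, adjusted p = 0.001), with averages of 28.9, 41.7 and 21.5 CPM for Vectors, wild type and mutant.

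Of 6 other regulators of serine synthesis 1, MYC, was higher in FOXL2-WT (0.31, adjusted p = 0.00046) and in FOXL2-C134W (0.34, adjusted p = 7.4e-05). MTOR was higher with FOXL2-C134W than with FOXL2-WT (0.25, adjusted p = 0.016), a call lost with a gene length offset (0.09, adjusted p = 0.22) and without FOXL2-WT replicate C (0.21, adjusted p = 0.081), FOXL2-C134W replicate B (0.21, adjusted p = 0.087) or FOXL2-C134W replicate C (0.24, adjusted p = 0.058). Of 8 amino acid transporter genes 7 were higher in FOXL2-WT, with a median of 0.44, and 6 were higher and 1 lower in FOXL2-C134W. They included SLC1A4, a carrier of serine and alanine (0.61 in FOXL2-WT and 0.38 in FOXL2-C134W), SLC1A5 (0.55 and 0.38), the leucine carrier SLC7A5 (0.56 and 0.47), the cystine carrier SLC7A11 (0.40 and 0.37) and the glycine carrier SLC6A9 (0.46 and 0.33). Their adjusted p ranged from 1.5e-05 for SLC7A5 to 0.00064 for SLC7A11 in FOXL2-WT. Against FOXL2-WT, 3 transporter genes were lower in FOXL2-C134W. Epithelial markers had summed levels of 1559 to 1766 CPM in Vectors, 2073 to 2184 in FOXL2-WT and 1838 to 2352 in FOXL2-C134W. Of the 5 markers 4 were tested, and their directions were mixed. The keratin gene KRT7 was higher in FOXL2-WT (0.45, adjusted p = 0.0030) and in FOXL2-C134W (0.41, adjusted p = 0.0026). The tight junction gene CLDN4, with 179 to 422 counts per library, was lower in both (-0.47, adjusted p = 0.0062, and -0.76, adjusted p = 3.4e-05). KRT19, with 4855 to 9545 counts, was lower in FOXL2-C134W (-0.17, adjusted p = 0.036), and EPCAM, with 71 to 188 counts, passed in neither. CDH1 had 2 to 12 counts and was not tested. The part of these genes in the results was not tested.

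**Figure D4:**
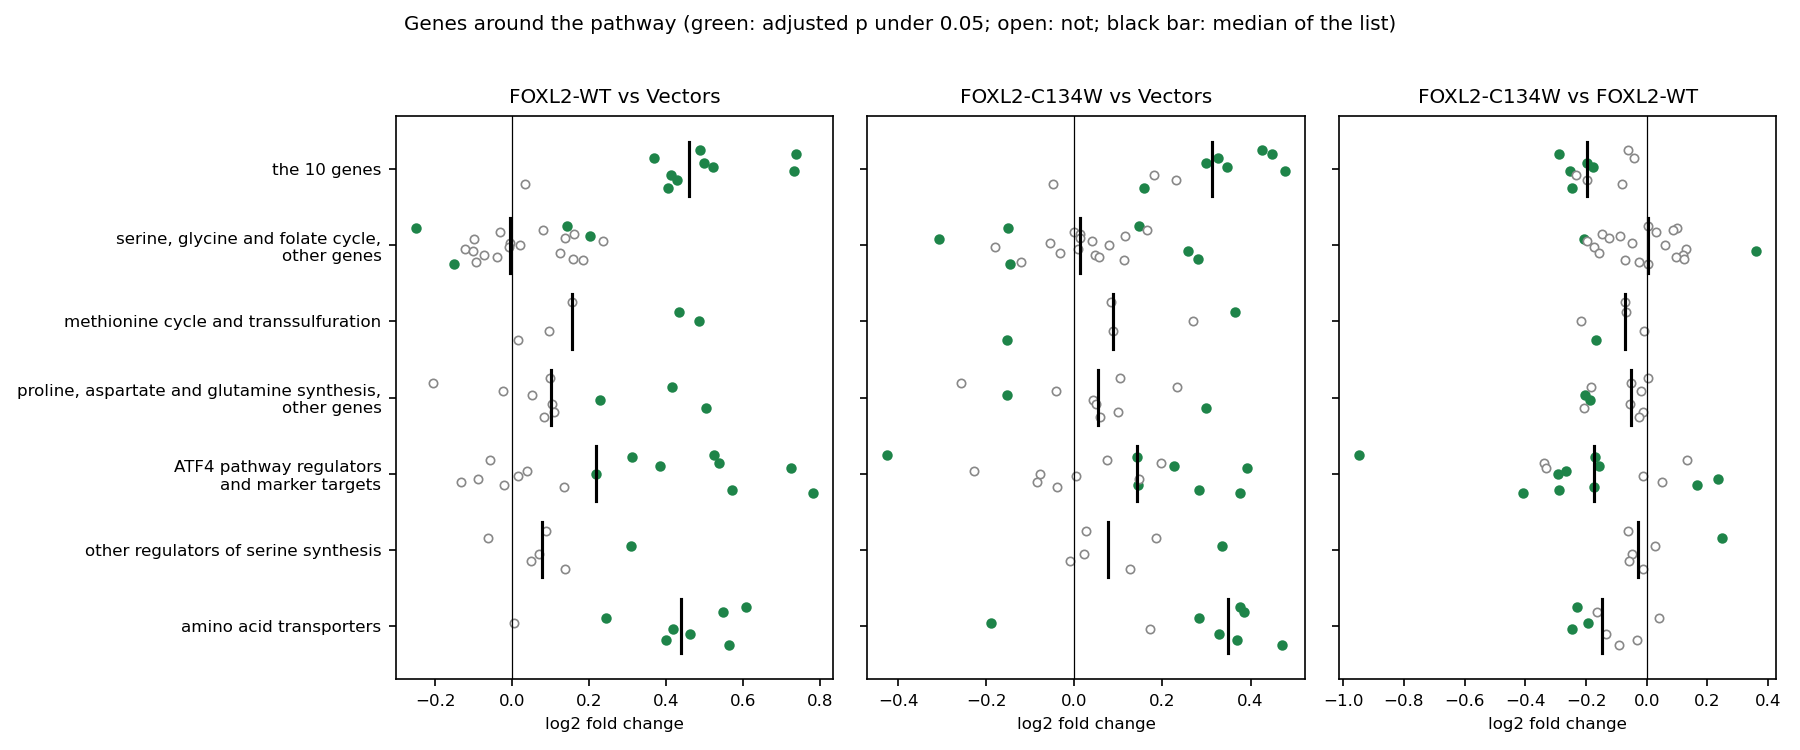
Log2 fold changes (x axis) of the tested genes of each list (rows) in 3 comparisons (panels); green points had an adjusted p under 0.05, open points did not, and black bars mark list medians. In the left panel the medians of the 10 genes (0.46) and of the transporters (0.44) lie right of those of the other lists, the next being the ATF4 pathway at 0.22.

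Reads were assigned to several transcripts of most of these genes. A transcript of 2206 bases held 97.7% of the PSAT1 TPM on average and one of 7428 bases 90.4% of that of ALDH1L2. The share of the main SHMT2 transcript, of 2006 bases, averaged 73.2 ± 3.17% in Vectors, 65.5 ± 4.95% in FOXL2-WT and 60.4 ± 5.27% in FOXL2-C134W (SD, n = 3), a description that was not tested. For ASNS, a 579-base transcript held 27.4% of the TPM, and a short transcript takes more TPM for the same counts. Short transcripts also held TPM of other genes. Among them were one of 599 bases for MTHFD2 (26.5%), one of 524 bases for MTHFD1L (28.8%) and one of 508 bases for PHGDH (19.8%). A 332-base transcript held 26.0 ± 6.71% of the SHMT1 TPM in Vectors and 12.9 ± 4.78% in FOXL2-WT, and SHMT1 averaged 23.7 and 21.2 TPM but 30.4 and 31.1 CPM in these conditions.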

How the data were processed

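RNA of 15 HGrC1 libraries, 3 for each of 5 conditions, was sequenced by the authors as 75-bp single-end reads from a stranded mRNA kit. Conditions and replicates A, B and C were taken from the labels. The authors estimated transcript abundance with salmon 1.1.0 on hg38 and deposited estimated counts, summed to 37787 genes and rounded, without normalization, of which 15042 genes were at 0 in all libraries. They also deposited TPM and estimated counts for 227063 transcripts per library. The GENCODE release is not given in the sources used here, and 98.4% of transcripts matched GENCODE 44 by identifier. Counts of near-identical copies could be split by salmon. Library totals ran from 14962245 to 25339094, and replicates differed by more than counting noise.

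Genes were filtered with filterByExpr, which left 13868, scaled with TMM, and fitted over all 15 libraries, 1 term per condition, with the quasi-likelihood test of edgeR 4.0.16 (R 4.3.3, limma 3.58.1). A gene was called at a Benjamini-Hochberg adjusted p under 0.05 over all genes tested, so "higher" and "lower" describe called genes. CPM is scaled by TMM, and 95% intervals come from the same fit. Alternatives were DESeq2 1.42.0 with and without transcript length offsets, its size factors, 2 other count filters, fits of the compared groups only, offsets for gene length and GC content, a replicate block and leaving out each library. A fit without the 2 libraries under 16000000 counts was added after seeing the data. The steps were tested on simulated data. The 10 genes and all lists were chosen with earlier results of these data known. Genes named beside them were up to 5 per list with the largest called, non-overlapping differences in FOXL2-C134W against Vectors or FOXL2-WT, ATF4, and the 5 most like the group's mean (log2-CPM, prior count 2). One gene that this rule names is not reported here. Figures were drawn with matplotlib 3.10.9 in Python 3.11.15 (pandas 2.3.3, numpy 2.4.6).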

Additional observations from a re-analysis of the deposited data

Results flagged for a closer look

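None of the 10 genes and none of the genes named beside them had a called interaction. The transfected genes did: the effect of adding FOXO1-3A on their RNA differed between the 2 FOXL2 forms by the interaction term of edgeR. For FOXO1 the difference was -1.41 on the log2 scale (adjusted p = 4.7e-05), with 117 ± 14.5 CPM beside FOXL2-WT and 43.2 ± 4.06 CPM beside FOXL2-C134W (SD, n = 3). For FOXL2 it was 0.60 (adjusted p = 0.033), since FOXL2 RNA was lower with FOXO1-3A beside FOXL2-WT (log2 fold change -0.55) and not called beside FOXL2-C134W (0.05). For SMAD3 it was 0.41 (adjusted p = 0.0065), with log2 fold changes of -1.51 and -1.11. The part of these unequal levels in the values of the 10 genes was not tested.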

How the results depend on the processing

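The counts of called genes against Vectors moved by less than 1.5 times in every setting tried, from 7 to 9 in FOXL2-WT and from 6 to 9 in FOXL2-C134W. The count for FOXL2-C134W against FOXL2-WT, 5, was 2 in DESeq2 with transcript length offsets (ASNS and PSAT1) and 2 without the libraries under 16000000 counts, and ranged from 2 to 6 with 1 library left out. With all genes of at least 1 count in any library, 2 genes were called for FOXO1-3A beside FOXL2-WT, 1 (PYCR1) between the FOXO1-3A conditions and 1 (ASNS) for the interaction. The shares of all genes called with that filter are not given here, so these calls have no background beside them. Leaving out 1 library gave 8 to 9 genes for FOXL2-WT, 6 to 8 for FOXL2-C134W, 7 to 9 for FOXL2-WT + FOXO1 and 6 to 7 for FOXL2-C134W + FOXO1 against Vectors, and 0 elsewhere. Values near 0 changed sign. In DESeq2 with transcript length offsets, SHMT1 against Vectors stood at -0.15 (FOXL2-WT), -0.10 (FOXL2-WT + FOXO1) and -0.29 (FOXL2-C134W + FOXO1), MTHFD1 at -0.081 (FOXL2-WT), and MTHFD1L at 0.13 in FOXL2-C134W against FOXL2-WT. Without the libraries under 16000000 counts that MTHFD1L value was 0.018. Lowest and highest values with 1 library left out were -0.0094 and 0.080 for SHMT1 in FOXL2-WT, -0.016 and 0.073 for SHMT1 in FOXL2-C134W + FOXO1 and -0.019 and 0.050 for MTHFD1 in FOXL2-WT, all against Vectors, -0.073 and 0.017 for MTHFD1L in FOXL2-C134W against FOXL2-WT, and -0.051 and 0.0088 for PSAT1 with FOXO1-3A beside FOXL2-C134W. The cause of these shifts was not tested. ALDH1L2 passed in FOXL2-C134W against FOXL2-WT with a gene length offset (-0.23, adjusted p = 0.0015). Among genes outside the group, DESeq2 with transcript length offsets ended the calls of ATF3 and MARS1 in FOXL2-WT and of SLC19A1, ATIC, MAT2B, GPT2 and SLC6A9 in FOXL2-C134W against Vectors, and of MTR, GLUL and MTOR between FOXL2-C134W and FOXL2-WT. By CPM in place of TPM the order of levels moved for 9 of 10 genes, with PSAT1 at rank 5 by TPM and rank 2 by CPM.

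Correlations of same-letter deviations ran from -0.16 to 0.17, and no pair of conditions had all above 0.1. The labels do not say whether libraries of the same letter were made together, and these correlations cannot decide it. A replicate block changed none of the counts of called genes, 9 and 7 for FOXL2-WT and FOXL2-C134W against Vectors, 5 between them, 9 and 7 for the FOXO1-3A conditions against Vectors and 0 elsewhere, and with a gene length offset as well it gave 9 genes each for the FOXL2-C134W conditions, without and with FOXO1-3A, against Vectors. Depth did not order the errors strictly. In FOXL2-WT against Vectors the standard error was 0.093 for PSPH, 0.080 for PYCR1 and 0.066 for SHMT1, the gene with the fewest counts. For the other genes it was smaller, from 0.045 for MTHFD2, the most covered, to 0.061 for ASNS.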
